A study of Canis lupus familiaris with 37 samples.

Results

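The genes described here were chosen by their counts: a gene entered when its lowest level over all 33 canine lymphoma and cell line samples lay above its highest level in the 4 control lymph nodes. Levels are CPM, the gene's count scaled so that the counts on Ensembl genes of each library sum to the same fixed total, and the lowest of the 33 had to be at least 5 CPM. Genes that the study listed under the DNA replication pathway, as microRNAs or as long non-coding RNAs were left out. Of 32704 genes in the files, 323 met these limits and 11 of these were on the excluded lists, which left 312 genes. Since the controls and the tumour samples chose the genes, every difference from controls given here is a description without a test. Comparisons among tumour groups give the controls no weight and were tested gene by gene. The 4 controls did enter the shared scaling, gene filter and estimate of spread. The rule still set a floor under the same tumour values, since a gene that falls to the level of the controls in any group cannot be a member, so that calls among groups are conditioned on it.

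The samples were RNA sequencing libraries of dogs. The controls were 4 non-neoplastic lymph nodes. The lymphomas were 12 samples titled B-cell lymphoma and 4 samples that the study grouped as probable T-cell lymphomas. Of these 4, 1 was labelled T-cell lymphoma and 3 were labelled intestinal lymphoma, which the study had placed there by their expression profiles. Flow cytometry labels of several samples disagree with their titles. The 17 remaining libraries came from 5 lymphoid cell lines, with 5 of CLBL-1, 5 of CLBL-1M and 1 of GL-1 (B-cell origin), and 4 of OSW and 2 of CL-1 (T-cell origin). CLBL-1M was raised from a tumour that CLBL-1 formed in a mouse, and libraries of 1 line share that line as their source. The labels give no treatment, time or age.

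Libraries held 1962722 to 4863730 counts on genes, so that a member at its lowest level rested on at least 13 reads. The library labelled control 4 carries a cell line as its source name, and 0.476% of its reads lay on more than 1 gene, against 0.129% to 0.143% in the other 3 controls and 0.363% to 0.549% in the cell lines. Its mean level of the members, 0.20 below the mean of the 4 controls on the log2 scale, was the lowest of the controls. The summed level of the 20 genes listed by the study for extracellular matrix and its receptors was 1882 CPM in control 4 and 1530 to 2247 CPM over the 4 controls. The cell type labels could not be checked against marker genes, since the files give Ensembl identifiers without gene names. Without control 4 the rule found 393 genes, and without control 1, 2 or 3 it found 361, 337 and 380.

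Cells that divide copy their DNA, condense their chromosomes, attach them to the spindle through the kinetochore, and pass checkpoints that delay division until each step is complete. Genes for these steps are transcribed mostly in dividing cells. A lymph node holds many resting lymphocytes together with stromal cells, while lymphomas and cultured lines hold many dividing lymphoid cells. In bulk RNA, a larger share of cells of a type and more RNA per cell of that type cannot be told apart. The summed level of the extracellular matrix genes was 302 to 826.3 CPM for B-cell lymphomas, 490.3 to 3222 CPM for probable T-cell lymphomas and 247.8 to 1609 CPM in the lines, and its part in the rise of the members was not tested.

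Identities of the members are known here only as far as the study's supplementary functional lists, which show part of the genes of each term, name their identifiers. These lists were made by the study from the same samples and are no independent evidence. They placed 70 of the 312 members under a term: 36 under chromosome segregation and cell division, 8 under DNA replication outside the excluded pathway, 12 under cell cycle transitions and checkpoints, 8 under DNA damage, chromatin and nucleolus, and 6 under antiviral response and antigen processing. Of the extracellular matrix list, 0 of 20 genes were members. The remaining 242 members stood under none of these terms.

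The limit was a narrow one for many genes. Among genes with a lowest tumour level of at least 5 CPM, 4.37% (323 of 7383) had all 33 samples above all controls, and 4.49% of the 11203 genes with a lowest control level of at least 5 CPM had all 33 below. In single groups the share with every sample above every control was 9.44% over the 12 B-cell lymphomas and 15.8% over the 4 probable T-cell lymphomas. Among the lines it was 27.8% for CLBL-1M, 31.9% for CLBL-1, 32.5% for OSW, 43.1% for CL-1 and 47.4% for the single GL-1 library. These shares differ in how many samples had to pass. The ratio of the lowest tumour level to the highest control level was 1.12 at the median member and 2.61 at the highest. It was under 1.1 in 130 members and at least 2 in 8. The member nearest the limit, ENSCAFG00000002334, had 15.2 CPM in its lowest tumour sample and 15.2 CPM in its highest control, a ratio of 1.002, and the gene nearest outside, ENSCAFG00000031936, had 56.01 and 56.03 CPM. The lowest of the 33 values fell in a lymphoma for 268 members, in 217 of them a B-cell lymphoma, and in a cell line for 44.

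Together the 312 genes took 1.86% to 2.29% of the gene counts in controls, 3.68% to 6.01% in B-cell lymphomas, 4.59% to 5.44% in probable T-cell lymphomas and 5.15% to 7.41% in the cell lines. Their mean level above the controls, in log2 of normalised CPM plus 1, was 1.45 ± 0.239 (SD, n = 12) in B-cell lymphomas and 1.59 ± 0.0975 (SD, n = 4) in probable T-cell lymphomas. It was 2.02 ± 0.186 (SD, n = 5) in CLBL-1, 2.04 ± 0.204 (SD, n = 5) in CLBL-1M, 1.89 ± 0.0634 (SD, n = 4) in OSW, 1.88 ± 0.0519 (SD, n = 2) in CL-1 and 1.69 in the single GL-1 library. The 2 lymphoma groups overlapped, and the range of the lines, 1.69 to 2.24, overlapped the top of the B-cell lymphomas at 1.86.

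**Figure D1:**
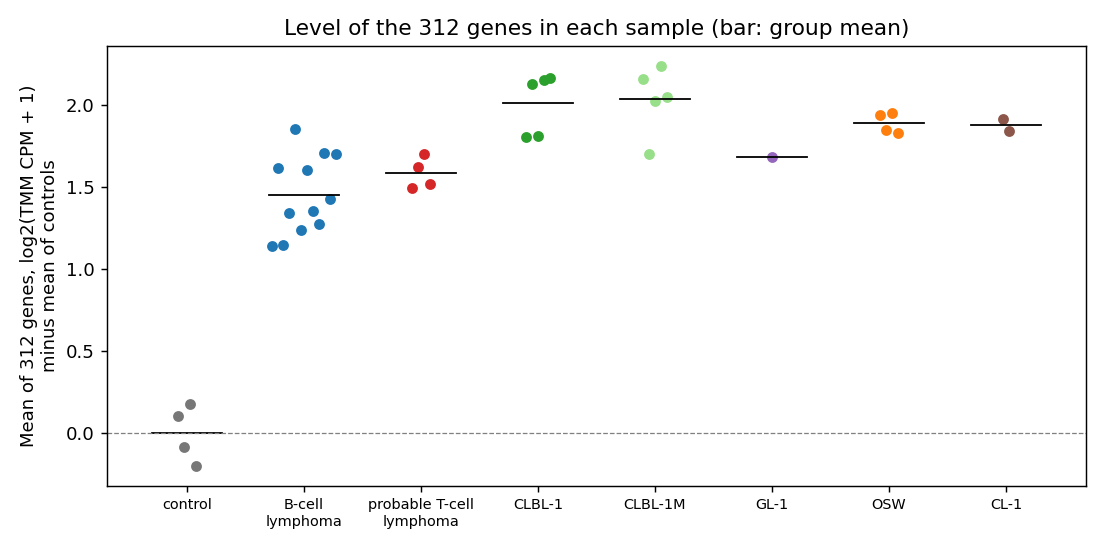
Mean level of the 312 genes in each of 37 samples, as log2(TMM CPM + 1) minus the mean of the 4 controls, by group, with each point a sample and each bar a group mean. The controls sit between -0.20 and 0.18, the B-cell lymphomas between 1.14 and 1.86, and the cell lines between 1.69 and 2.24.

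The size of the rise differed by group, in the edgeR fit of all 8 groups. The median rise over controls on the log2 scale was 1.41 for B-cell lymphomas (0.0098 over all 15162 tested genes) and 1.45 for probable T-cell lymphomas (0.09 over all). The median was 1.47 for GL-1 (-0.08 over all), 1.71 for OSW (-0.08), 1.79 for CL-1 (-0.23), 1.84 for CLBL-1M (-0.16) and 1.85 for CLBL-1 (-0.19). Size factors in place of TMM lowered the median of all genes in the B-cell lymphomas from 0.0098 to -0.20 and that of the members from 1.41 to 1.19. In all 7 groups, 184 members had a rise of at least 1 and 47 a rise of at least 2. A rise of at least 2 was found for 64 members in B-cell lymphomas and for 136 in CLBL-1. By median CPM, CL-1 was the highest of the 7 groups for 93 members and B-cell lymphomas the lowest for 110.

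**Figure D2:**
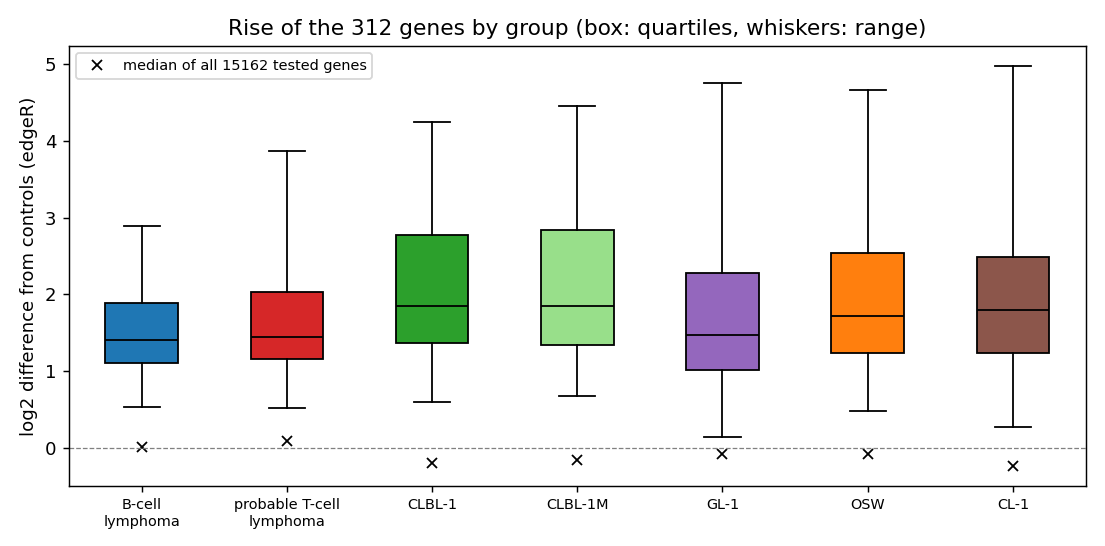
Log2 difference from controls of the 312 genes in each of 7 groups, from the edgeR fit, with boxes for the quartiles, whiskers for the full range and crosses for the median of all 15162 tested genes. Medians of the 312 genes run from 1.41 in B-cell lymphomas to 1.85 in CLBL-1, against -0.23 to 0.09 for all genes.

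By role, members under chromosome segregation and cell division, DNA replication, and cell cycle transitions had the higher median rises in all 7 groups. The median of the 36 under chromosome segregation and cell division was 2.05 for B-cell lymphomas, 2.41 for probable T-cell lymphomas and 3.06 for CLBL-1. The 12 members under cell cycle transitions and checkpoints had medians of 1.81, 2.29 and 2.91, and the 8 under DNA replication 1.81, 2.12 and 3.02. The DNA replication members had the highest median in CLBL-1M (3.30 against 3.12 for chromosome segregation and cell division), GL-1 (2.88 against 2.61) and CL-1 (2.57 against 2.51). The 8 members under DNA damage, chromatin and nucleolus had 1.15, 1.21 and 1.46. The 6 under antiviral response and antigen processing had 1.08, 1.23 and 1.43, and the 242 members under no term 1.34, 1.38 and 1.76. Differences between roles are given as values, since the same controls that chose the genes enter them. They also depend on the order in which genes with several roles were counted.

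ENSCAFG00000012136, listed under the kinetochore and mitotic sister chromatid segregation, had the highest ratio among members with a listed role (2.52). Its levels in the 4 controls were 13.7, 5.6, 12.2 and 7.82 CPM. In the 12 B-cell lymphomas it ranged from 34.6 over a median of 52.6 to 181.5 CPM. The probable T-cell lymphomas had 45.5, 64.3, 86.6 and 57.03 CPM, with a median of 60.65 CPM that was close to the B-cell median. CLBL-1 had 92.5, 153.3, 91.8, 146.0 and 172.9 CPM, and CLBL-1M had 158.1, 78.2, 151.2, 153.3 and 135.7 CPM. OSW had 90.8, 101.0, 84.8 and 93.9 CPM, CL-1 82.1 and 71.6 CPM, and GL-1 57.1 CPM. The CLBL samples thus fell into a lower set of 3, CLBL-1 replicates 1 and 3 and CLBL-1M replicate 2, and a higher set of 7.

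ENSCAFG00000009745, listed under regulation of chromosome segregation, had a ratio of 2.32. Its control levels were 5.47, 4.08, 7.25 and 6.95 CPM, against 16.8 to 54.7 CPM in B-cell lymphomas, with a median of 27.9 CPM. The probable T-cell lymphomas had 28.1, 57.6, 58.8 and 42.1 CPM. OSW was uniform at 69.8, 70.8, 70.2 and 69.1 CPM. ENSCAFG00000005302, listed under the condensed chromosome kinetochore, had control levels of 6.39, 5.6, 5.27 and 6.52 CPM and 14.01 to 84.5 CPM in B-cell lymphomas, a ratio of 2.15. Its 17 cell line samples lay between 40.99 and 85.2 CPM.

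Of the members under no term, ENSCAFG00000019924 had the highest ratio of all 312 (2.61). It was also one of the lower ones in level, with 1.82, 2.55, 2.64 and 0.435 CPM in the controls and 6.88 to 18.2 CPM in B-cell lymphomas. ENSCAFG00000023690 had 10.5, 5.09, 9.23 and 6.52 CPM in controls and 24.6 to 78.4 CPM in B-cell lymphomas, a ratio of 2.34.

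**Figure D3:**
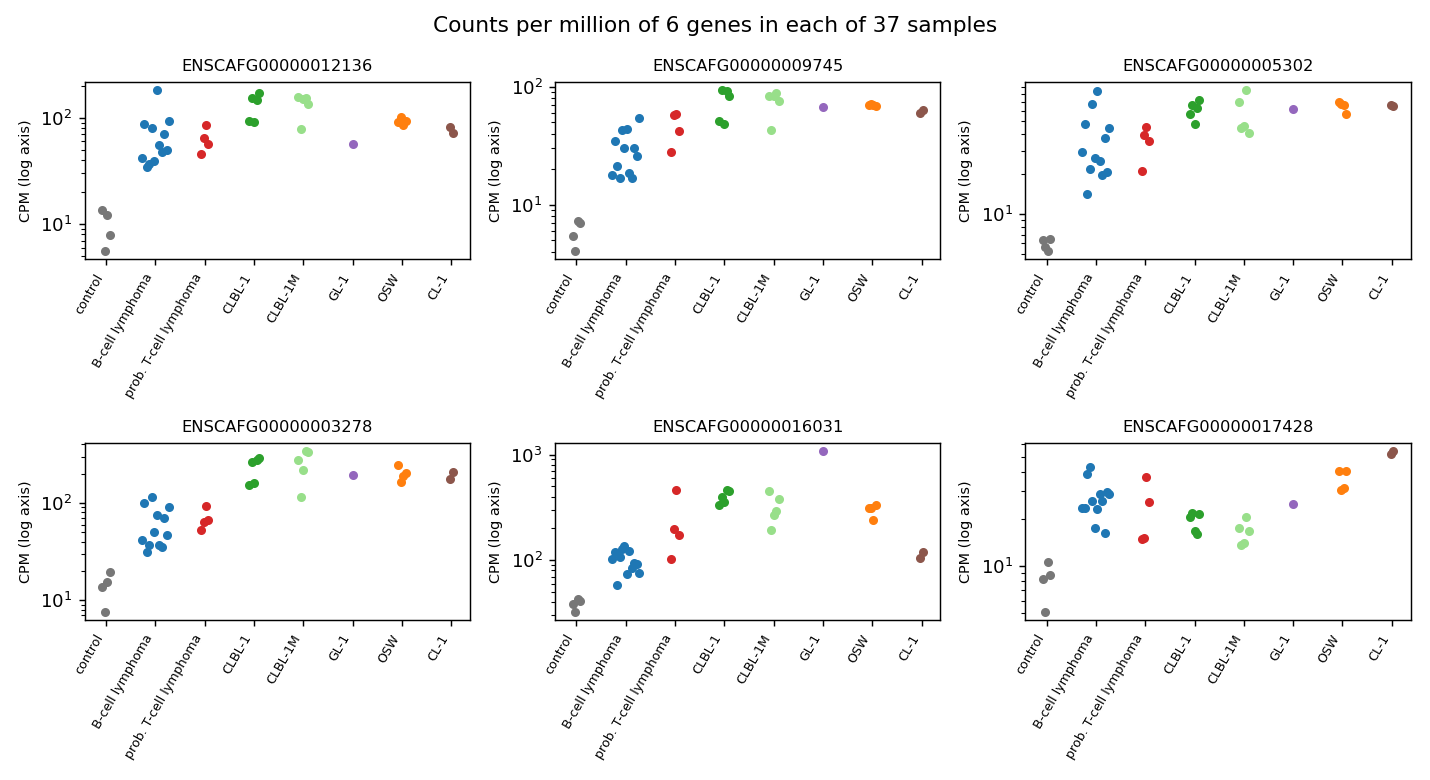
Levels in CPM of 6 genes in each of 37 samples, on a log axis, by group, with each point a sample. In the upper 3 genes and in ENSCAFG00000003278 and ENSCAFG00000016031 the 4 controls lie below all 33 other samples by ratios of 1.37 to 2.52, and ENSCAFG00000017428, with a ratio of 1.29, has its lowest tumour value of 13.6 CPM in CLBL-1M.

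Cell lines were compared with lymphomas, each group weighted equally, to ask whether the members differed in level between them, with the weight of GL-1 resting on 1 library. Of the 312 members, 151 (48.4%) were higher and 17 (5.45%) lower in the lines at an adjusted p of at most 0.05 in edgeR's quasi-likelihood test, Benjamini-Hochberg adjusted over all genes. The background was 19.7% higher and 42.7% lower over all tested genes, and 25% and 35.3% among genes with a lowest level of at least 5 CPM. Neither background had to lie above the controls, whereas the rule leaves out genes that fall to control level in the lines or in the lymphomas. The gap between members and background is therefore partly fixed by the rule, and nothing particular to the members is read from it, here or in the comparisons that follow. The median log2 difference was 0.30 for members and -0.32 for all tested genes. Of the 36 members under chromosome segregation and cell division, 25 were higher and 0 lower. Of the 8 under DNA replication 6 were higher, of the 12 under cell cycle transitions 7, and 0 were lower in either. The libraries also differed in kind. Reads on more than 1 gene were 0.363% to 0.549% in the lines and 0.0977% to 0.229% in the lymphomas. The 10 highest genes took 4.197% to 6.503% of gene counts in the lines and 2.332% to 3.825% in the lymphomas. Neither range overlapped, and their part in the calls was not tested, here or in CLBL against B-cell lymphomas.

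ENSCAFG00000003278, listed under mitotic sister chromatid segregation, had the largest difference among members with a listed role, 1.66 ± 0.206 (SE) with adjusted p = 5.34e-08 in edgeR. It had 31.1 to 113.9 CPM in B-cell lymphomas and 52.9, 64.3, 93.3 and 66.8 CPM in probable T-cell lymphomas, and 114.6 to 341.4 CPM in the 17 line samples. Its lymphomas and lines did not overlap. ENSCAFG00000011961, listed under the mitotic DNA integrity checkpoint, was higher by 1.44 ± 0.221 (SE). Its CL-1 samples stood apart at 410.7 and 438.7 CPM, while OSW, at 75.5, 60.1, 95.99 and 72.9 CPM, overlapped the lymphomas, which reached 100.7 CPM. GL-1 (99.5 CPM), CLBL-1 replicates 1 and 3 (91.7 and 97.9 CPM) and CLBL-1M replicate 2 (84.3 CPM) overlapped them too. The other CLBL samples lay above the lymphomas. ENSCAFG00000013980, listed under mitotic sister chromatid segregation and the G1/S transition, was higher by 1.27 ± 0.231 (SE). In the other direction, ENSCAFG00000000948, listed under antigen processing and presentation, was lower in the lines, with a log2 difference of -0.49 ± 0.121 (SE) and adjusted p = 0.000784 in edgeR. Its levels were 195.2 to 573.1 CPM in lymphomas and 202.5 to 411.8 CPM in lines, which overlapped.

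Members can be set beside all genes that the study listed under the same terms, members included and each gene counted under its first role. Of all tested genes, 19.7% were higher and 42.7% lower in lines than in lymphomas. Of all 125 identifiers under chromosome segregation and cell division, 63 were higher and 33 lower. The 36 members among these gave 25 of the higher and 0 of the lower. Of 43 under DNA replication, 22 were higher and 8 lower, of 83 under cell cycle transitions 24 and 36, and of 58 under DNA damage, chromatin and nucleolus 15 and 20. Of 63 under antiviral response and antigen processing, 7 were higher and 48 lower. Of the last list, 25 of the 63 had a lowest level of at least 5 CPM over the 33 samples, and the rest could not be members. That level is read in the tumour samples, so a gene that falls there can miss it through its change.

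CLBL-1 and CLBL-1M against B-cell lymphomas, a comparison within the B lineage, had the most members called of the comparisons tested. Higher members numbered 197 (63.1%) and lower members 13 (4.17%), against 24.5% and 39.8% of all tested genes and 30.2% and 31% of those with a lowest level of at least 5 CPM, with the same floor under the members, since all 10 CLBL samples had to exceed every control. The median difference was 0.49 for members and -0.23 for all tested genes. Of the 36 chromosome segregation and cell division members 31 were higher and 2 lower. Of the 12 cell cycle members 11 were higher, and of the 8 DNA replication members 7. ENSCAFG00000003539, listed under the G2/M transition and DNA integrity checkpoints, was higher by 1.90 ± 0.199 (SE), with 34.9 to 117.2 CPM in B-cell lymphomas and 156.5 to 344.1 CPM in the CLBL samples, which did not overlap. ENSCAFG00000016031, listed under the G2/M transition, condensed chromosomes and antigen processing, was higher by 1.89 ± 0.176 (SE). ENSCAFG00000017428, listed under the response to DNA damage, was lower, with a difference of -0.54 ± 0.164 (SE) and adjusted p = 0.00471 in edgeR, and had 16.2 to 42.97 CPM in B-cell lymphomas and 13.6 to 21.7 CPM in CLBL samples.

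Lineage was compared in both kinds of sample. In lymphomas, 54 members (17.3%) were higher in probable T-cell than in B-cell lymphomas and 15 (4.81%) lower, against 19.5% and 11.5% of all tested genes and 13.6% and 12.2% of those with a lowest level of at least 5 CPM. The share of higher members was thus near the background. Since the study placed 3 of the 4 probable T-cell samples by their expression, the groups are not independent of it. The groups follow sample titles, with which the flow cytometry labels of several samples disagree. The members named by the rule were ENSCAFG00000011140, listed under sister chromatid segregation, with a difference of 1.42 ± 0.296 (SE), ENSCAFG00000016031 with 1.25 ± 0.221 (SE) and ENSCAFG00000008878, listed under chromatin, with 1.05 ± 0.233 (SE). The value of ENSCAFG00000016031 rested in part on intestinal lymphoma 3, which had 465.3 CPM against 103.2, 199.5 and 173.4 CPM in the other 3, and was 0.72 without it. ENSCAFG00000011140 had 70.2, 170.0, 137.7 and 143.0 CPM in the probable T-cell lymphomas and 17.4 to 102.8 CPM in the B-cell lymphomas, so that 1 probable T-cell lymphoma lay within the B-cell range. ENSCAFG00000017129, listed under cell division, was lower at -0.69 ± 0.177 (SE), with 113.2, 86.6, 91.5 and 104.0 CPM against 117.4 to 268.1 CPM and no overlap.

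In the lines, OSW and CL-1 against CLBL-1 and CLBL-1M gave 18 higher members (5.77%) and 66 lower (21.2%), against 19.3% and 21.8% of all tested genes and 15.5% and 25.4% of those with a lowest level of at least 5 CPM. The lower share was near the background. Without CL-1 replicate 2 the count of lower members was 32. Of the chromosome segregation and cell division members, 1 was higher and 11 lower. ENSCAFG00000016031 was lower in the T-cell lines by this average, with a difference of -1.09 ± 0.229 (SE), but OSW had 312.9, 315.2, 238.1 and 330.8 CPM and CL-1 105.5 and 120.0 CPM against 193.9 to 458.2 CPM in CLBL samples. ENSCAFG00000017428 was higher by 1.15 ± 0.196 (SE), with 40.3, 30.6, 31.5 and 40.6 CPM in OSW and 52.2 and 54.2 CPM in CL-1, all above the CLBL samples.

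The difference between those lineage contrasts was tested directly as an interaction. It was positive for 54 members (17.3%) and negative for 11 (3.53%), against 15.8% and 11.5% of all tested genes and 16.7% and 9.21% of those with a lowest level of at least 5 CPM, and the positive share was near the background. The negative count was 6 without intestinal lymphoma 1, 6 without CL-1 replicate 1 and 7 without CL-1 replicate 2. The median was 0.29 for members and 0.08 for all tested genes.

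**Figure D4:**
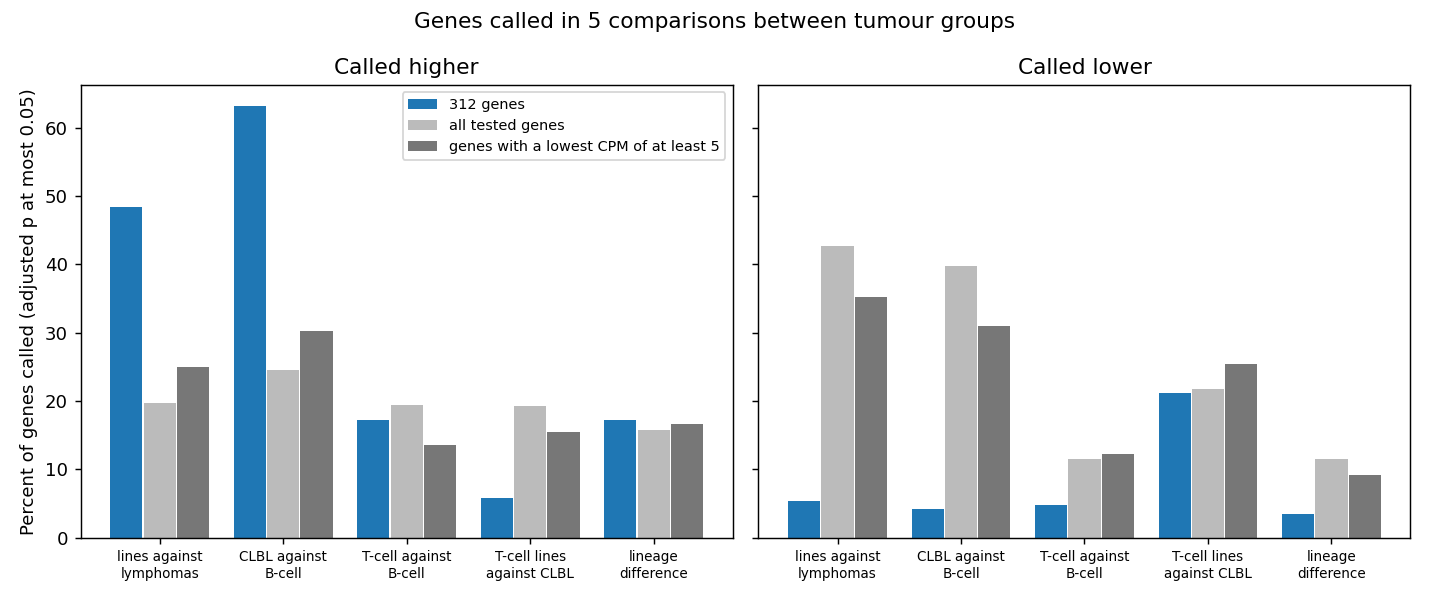
Percent of genes called higher (left) or lower (right) at an adjusted p of at most 0.05 in 5 comparisons between tumour groups, for the 312 genes, for all 15162 tested genes and for those with a lowest level of at least 5 CPM. Of the 312 genes, 48.4% were higher in lines than in lymphomas and 63.1% in CLBL than in B-cell lymphomas, and the backgrounds, unlike the 312 genes, did not have to lie above the controls.

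Members varied together among samples of 1 kind. Over the 12 B-cell lymphomas the median Pearson r between pairs of members was 0.348, against 0.00783 between pairs of the 7383 genes with a lowest level of at least 5 CPM, and 81.8% of member pairs had a positive r. These are correlations across genes that share libraries and their scaling, and are given as a description. Within the 36 chromosome segregation and cell division members the median was 0.667, and within the 242 members under no term 0.343. With the mean of the other members, the median member had an r of 0.617, and 207 members (66.3%) were above 0.5, against 13.8% of 7071 other genes.

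ENSCAFG00000019070, listed under DNA conformation change and the nucleolus, followed the other members most closely of those with a listed role (r = 0.917), followed by ENSCAFG00000003278 (r = 0.899) and ENSCAFG00000010838, listed under nuclear chromosome segregation (r = 0.892). At the other end stood ENSCAFG00000017428 (r = -0.325), ENSCAFG00000001076, listed under DNA conformation change and the condensed chromosome (r = -0.061), and ENSCAFG00000017129 (r = 0.0336). The lowest member mean was 1.14, in B-cell lymphoma 1, and the highest 1.86, in B-cell lymphoma 5.

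The mean of the members over the 12 B-cell lymphomas followed that of the 19 excluded DNA replication genes (r = 0.828, rho = 0.776, and r = 0.827 without the 2 samples farthest from the median). With the summed extracellular matrix level r was 0.157, with the total gene count 0.111, and with the percentage of reads that hit more than 1 gene -0.565 (-0.451 without the 2 farthest samples). The part of these measures in the covariation was not tested. The members and the 19 excluded genes are not separate in kind, since 8 members were counted under DNA replication.

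Within the CLBL lines, after subtracting the mean of each line, the median pairwise r over 10 samples was 0.498, against 0.00389 for all genes of that level. This rested on 3 samples. CLBL-1 replicates 1 and 3 and CLBL-1M replicate 2 had member means of 1.81, 1.81 and 1.71, below the other 7 at 2.02 to 2.24, and without them the median r was 0.178. For the 36 chromosome segregation and cell division members the fall was from 0.755 to 0.02, and for the 19 excluded DNA replication genes from 0.831 to 0.325. Since the samples fall into 2 sets, the correlation over all 10 describes mostly the distance between them. The 3 low samples had 2474777, 2319126 and 1980761 counts on genes, the lowest of the 10, and the part of depth in their lower means was not tested. The pair CLBL-1 replicates 1 and 3 was the closest of all replicate pairs, with counts that differed by little more than sampling noise (chi-square per gene 1.32). The next closest pair of CLBL-1, replicates 4 and 5, had 3.45. Whether replicates 1 and 3 share 1 source is not stated. Both were kept, so the 3 low samples may hold fewer separate sources, and the 5 of CLBL-1 may count 1 source more than once.

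**Figure D5:**
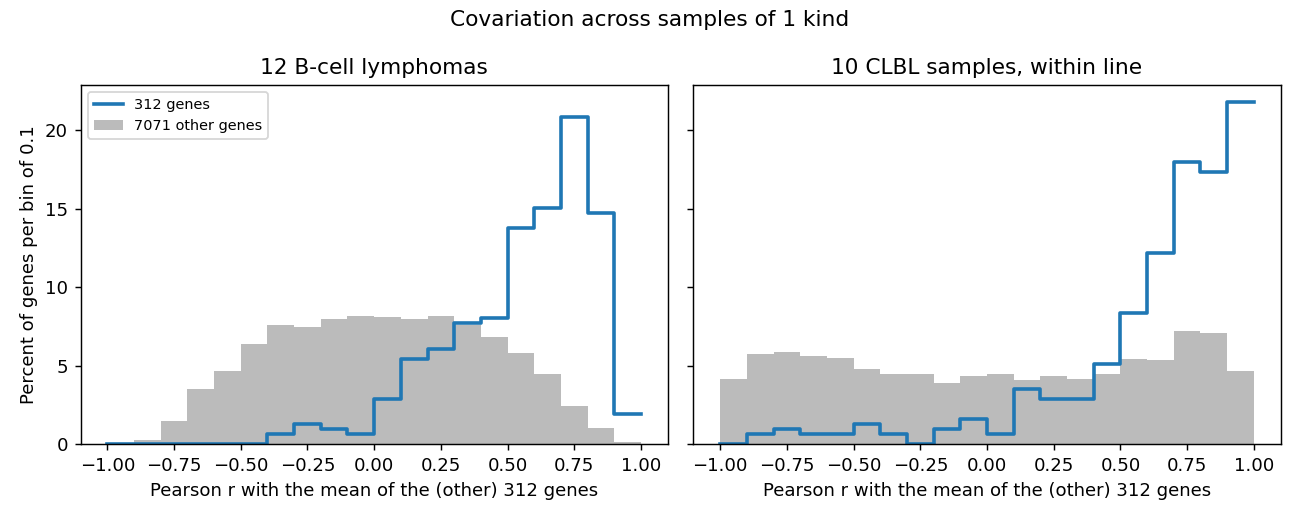
Percent of genes in bins of 0.1 of the Pearson r with the mean of the (other) 312 genes, over 12 B-cell lymphomas (left) and 10 CLBL samples after subtracting each line's mean (right), for the 312 genes (line) and 7071 other genes of at least 5 CPM (bars). Above 0.5 lie 66.3% of the 312 genes against 13.8% of other genes on the left, and 77.6% against 29.7% on the right.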

How the data were processed

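Per the study's methods, the authors sequenced poly-A RNA, aligned the reads using BWA to the CanFam3.1 build, discarded duplicates and poor alignments, and tallied Ensembl genes with HTSeq 0.6.1. The deposited files hold 1 whole-number count for each gene, not normalized. Whether counting used strand is not given in the sources used here, so overlapping and near-identical genes are uncertain.

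Groups came from sample titles. Flow cytometry labels disagree with titles and were not used, and the labels of CLBL-1 and CLBL-1M disagree in part. Exchanging the names of all samples of both lines was an alternative. It only trades the 2 median rises (1.853 and 1.844) and leaves averages over both lines unchanged. It therefore cannot address a partial disagreement. Whether replicates came from separate cultures is not stated, so p-values may measure technical spread within lines. CPM used the total of gene counts. The tests used edgeR 4.0.16 in R 4.3.3: TMM factors, 8 groups and all 37 samples in 1 quasi-likelihood fit, genes whose highest CPM exceeded the 40th percentile (15162 genes, all 312 members among them), and Benjamini-Hochberg adjustment with a threshold of 0.05. SE was taken as the log2 difference over the square root of F. Covariation used log2 of TMM-scaled CPM plus a pseudocount of 1. The fit was tested on simulated data. Alternatives were size factors, DESeq2 1.42.0, other filters and thresholds, a replicate block and leaving out samples.

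The members and lists were chosen with earlier results of these data known. Files and reference pair no Ensembl identifier with a symbol, so planned symbol lists and cell type markers were not used, and no sequences are shown. Genes were named by a rule: among the 70 members with a listed role, the 10 highest ratios, up to 3 called members in each direction of 4 comparisons, and the 3 highest and 3 lowest correlations, with a selection of these given in the text. The 2 unlisted members of highest ratio were added, and restricting the rule to listed members was decided after the files were seen.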

Additional observations from a re-analysis of the deposited data

Results flagged for a closer look

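Among 25 named genes and the mean of the members, 130 group values were tested for a sample far from the others, and 7 were found. The values share libraries, so this count is not set against a rate by chance. In CLBL-1M, replicate 2 was far below the other 4 for ENSCAFG00000003539 (179.7 CPM), ENSCAFG00000003683 (71.7 CPM), ENSCAFG00000009745 (42.9 CPM), ENSCAFG00000012136 (78.2 CPM) and ENSCAFG00000019924 (16.7 CPM). These 5 share 1 library and are not separate events. In controls, control 2 was far above the others for ENSCAFG00000003683 (15.8 CPM), and in OSW replicate 1 was far below for ENSCAFG00000011140 (102.2 CPM).

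For 11 of the 25 named genes the T-cell minus B-cell difference in lymphomas differed from that in lines in the edgeR interaction test. Over all tested genes, 15.8% were called positive and 11.5% negative. The log2 difference of differences was positive for ENSCAFG00000016031 (2.34), ENSCAFG00000008340 (1.60), ENSCAFG00000009431 (1.30), ENSCAFG00000003539 (1.29), ENSCAFG00000015622 (1.22), ENSCAFG00000011140 (1.20), ENSCAFG00000009745 (1.01) and ENSCAFG00000001076 (0.95). It was negative for ENSCAFG00000017428 (-1.35), ENSCAFG00000017129 (-1.26) and ENSCAFG00000011666 (-0.67). Several of these were named because they differed in 1 of the lineage contrasts, so this test is not independent of their choice.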

How the results depend on the processing

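The member count was 477 with TMM-scaled CPM, of which 306 were among the 312, and 276 to 323 under size factors, other lowest levels, thinning to the smallest total and kept lists. Leaving out 1 control gave 337 to 393. With RLE size factors, and with DESeq2, the median rise was 1.28 for probable T-cell lymphomas, 1.30 for GL-1, 1.55 for OSW, 1.62 for CLBL-1M, 1.63 for CLBL-1 and 1.64 for CL-1. The cause of the lower values was not tested.

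At an adjusted p of at most 1e-05, edgeR called 26 members higher and 0 lower in lines against lymphomas (19 lower at an unadjusted p under 0.05), 72 and 0 in CLBL against B-cell lymphomas (16 lower), 0 and 0 in probable T-cell against B-cell lymphomas (81 higher, 27 lower), 2 and 3 in T-cell lines against CLBL, and 4 and 0 for the lineage difference (18 lower). Without a filter 8 members were lower in CLBL lines, and DESeq2 called 29 higher in T-cell lines. Shares over all genes are given only for the main settings at 0.05. Counts at other settings are therefore not read as a result about the members. Leaving out 1 replicate gave 32 to 73 lower members in T-cell lines against CLBL and 6 to 15 negative lineage differences, the lowest without intestinal lymphoma 1 or CL-1 replicate 1 (6 each), and 7 without CL-1 replicate 2. The covariation was 0.294 to 0.383 in B-cell lymphomas and 0.414 to 0.557 in CLBL with 1 sample left out, and 0.178 without the 3 low CLBL samples, an alternative chosen after seeing the data.

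Replicate numbers were shared between groups. Over 76 pairs of samples with the same number in different groups, deviations correlated by -0.0107 on average, with 6 above 0.1, so the numbers were not taken as pairs. With the replicate block, 147 members were higher and 12 lower in lines, 179 and 13 in CLBL, 46 and 11 in probable T-cell lymphomas, 24 and 47 in T-cell lines, and 53 and 10 for the lineage difference. These counts too have no share over all genes beside them. The T-cell line difference of ENSCAFG00000009431 had an adjusted p of 0.0586 in edgeR with the block, and 0.079 and 0.11 without CL-1 replicate 1 or 2. No named difference changed direction in the settings run. In the comparisons between groups, these settings left out no B-cell lymphoma and did not leave out the single GL-1 library.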
